A study of Mus musculus with 6 samples.

Results

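Long noncoding RNAs (lncRNAs) that stay in the nucleus make up some of the most abundant transcripts of neurons. The levels of 8 nuclear lncRNAs were described in the dorsal hippocampus of mice after knockdown of another lncRNA, Snhg11. The 8 are Meg3, Rian, Mirg, Malat1, Neat1, Miat, Peg13 and Kcnq1ot1. They were chosen by name, as well-known nuclear lncRNAs of brain, by a rule that uses no measured value. The choice was made with earlier results of these data known. All 8 were found among the 55401 genes counted, and all 8 were among the 19969 genes that passed the filter on low counts, with 1606 counts or more for each of them in every library.

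These RNAs act in different ways. Meg3, Rian and Mirg are transcribed from the maternal chromosome of the imprinted Dlk1-Dio3 locus, in the same direction and one after the other, and Rian and Mirg host small nucleolar RNAs (snoRNAs) and microRNAs. Malat1 resides in nuclear speckles, the compartments where splicing factors are stored, and Neat1 is the scaffold of paraspeckles, nuclear bodies that form around it and that grow when Neat1 is induced by stress. Miat (also called Gomafu) forms nuclear bodies of its own in neurons and carries repeats of a sequence that is bound by splicing factor 1. Peg13 and Kcnq1ot1 are paternally expressed imprinted RNAs, and Kcnq1ot1 silences neighbouring genes in cis in several tissues.

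Bulk RNA-seq was performed on 6 libraries of dorsal hippocampus, 3 for Control-ASO and 3 for Snhg11-ASO injections. An ASO is an antisense oligonucleotide, here with 2′MOE modifications, which recruits RNase H to cut the RNA it binds. The Snhg11-ASO was directed against exon 5 of Snhg11, and the Control-ASO held the same nucleotides in scrambled order. All mice were wild-type (WT) littermates of the Ts65Dn line on its mixed B6EiC3 background, aged 4 months, and the labels give the groups' genotypes as WT and Snhg11 KD. Every library held the Y-linked Ddx3y at 61.3 CPM or more and Xist at 0.182 CPM or less. Each hemisphere received 50 μg of ASO in the dorsal dentate gyrus (DG), and the tissue was taken 3 days later. The dorsal hippocampus was sequenced whole, so cells the ASO did not reach are included, and fewer cells of a type cannot be told apart from less RNA per cell. All markers of granule cells, pyramidal cells and interneurons were detected in every library. Of 8 interneuron markers 6 were lower in Snhg11-ASO (48.3% of all genes), 3 of them with no overlap between groups (7.70%). Of 8 granule cell markers 5 were lower and 3 higher. Of 8 pyramidal markers 4 were lower, 2 of them with no overlap. Astrocyte markers summed to 1512, 3467 and 2813 CPM in Control-ASO and to 1679, 3855 and 4027 CPM in Snhg11-ASO. The part of these differences in the members' levels was not tested.

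Libraries held between 28951250 and 43997537 gene counts. Snhg11 itself, the target of the knockdown, stood at 551, 436 and 209 CPM (counts per library total, scaled) in replicates 1, 2 and 3 of Control-ASO, and the same replicates of Snhg11-ASO held 139, 65.4 and 69.4 CPM. The groups did not overlap, and the log2 fold change was -2.13 (standard error, SE, 0.43; adjusted p = 0.395 with edgeR and 6.25e-05 with DESeq2). Snhg11-ASO replicate 1 stood apart from the other libraries. It lay at -49.8 on the first principal component, which carried 52% of the variance, while the other 5 libraries lay between -6.35 and 22.0. Results that rest on it are given with and without it.

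The members were transcribed from 5 chromosomes of the mouse genome (GRCm38, GENCODE release M21). Meg3 was annotated on the plus strand at chr12:109541001-109571726, Rian at chr12:109603940-109661716 and Mirg at chr12:109729764-109749460, with 32.2 kb between Meg3 and Rian and 68.0 kb between Rian and Mirg. Malat1 lay on the minus strand at chr19:5795690-5802672 and Neat1, 22.0 kb away from it, on the same strand at chr19:5824708-5845478. Miat lay on the minus strand at chr5:112213228-112229395. Peg13 was annotated on the minus strand at chr15:72805600-72810324, inside an intron of Trappc9, which is read in the same direction and shares no exonic base with it. Kcnq1ot1 lay on the minus strand at chr7:143203458-143296549, inside the gene Kcnq1, which is read in the opposite direction. The longest annotated transcripts of Malat1, Neat1, Peg13 and Kcnq1ot1 were unspliced and covered the whole gene, whereas exons made up 58.9% of the span of Meg3, 57.5% of that of Miat, 37.0% of that of Mirg and 31.6% of that of Rian. Counts of the spliced members therefore leave out reads that fall in their introns, and counts of the unspliced members do not.

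The start regions of the 3 neighbouring RNAs on chromosome 12 are shown because these RNAs share a locus and Rian and Mirg were lower in all Snhg11-ASO libraries. Each line holds 300 bases around a RefSeq start, most of them before it (GRCm38.p6, plus strand, 5′ to 3′), and capitals mark every TGACGTCA (the cyclic AMP response element, CRE), TATAAA and CCAAT found on either strand. Neighbouring or overlapping matches run together.
Meg3, chr12:109540746-109541045: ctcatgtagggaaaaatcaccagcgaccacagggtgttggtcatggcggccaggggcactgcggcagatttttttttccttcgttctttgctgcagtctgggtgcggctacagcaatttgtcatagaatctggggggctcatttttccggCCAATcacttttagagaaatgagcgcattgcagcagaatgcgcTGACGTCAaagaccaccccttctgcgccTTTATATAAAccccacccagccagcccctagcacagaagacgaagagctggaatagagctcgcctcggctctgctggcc
Rian, chr12:109603695-109603994: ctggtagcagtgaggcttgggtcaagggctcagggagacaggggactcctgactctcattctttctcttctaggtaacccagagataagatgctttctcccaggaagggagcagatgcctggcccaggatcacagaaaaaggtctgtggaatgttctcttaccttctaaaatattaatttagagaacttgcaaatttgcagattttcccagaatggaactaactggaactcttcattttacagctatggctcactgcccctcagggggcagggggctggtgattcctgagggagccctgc
Mirg, chr12:109734731-109735030: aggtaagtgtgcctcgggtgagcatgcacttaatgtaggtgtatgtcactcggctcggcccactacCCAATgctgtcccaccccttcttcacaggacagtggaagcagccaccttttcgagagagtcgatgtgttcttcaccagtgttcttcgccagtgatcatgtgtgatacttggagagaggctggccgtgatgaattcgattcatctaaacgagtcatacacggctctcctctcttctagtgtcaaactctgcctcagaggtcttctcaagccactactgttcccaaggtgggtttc
The RefSeq window of Mirg starts inside the gene as GENCODE draws it. Among 7 RefSeq start windows of the members (2 of them of Meg3, and none for Neat1 or Peg13), the window of Meg3 printed above was alone in holding the CRE, which was found in 588 of all 32851 windows (1.79%). It was also alone in holding TATAAA, found in 13.6% of all windows. CCAAT was found in that window and in the windows of Mirg and Kcnq1ot1, beside 37.4% of all windows. These are matches of letters and not binding sites.

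A stretch of Miat is shown for the repeat by which this RNA is known, TACTAAC, in capitals. It runs from base 4833 to base 5072 of the annotated transcript Miat-205, 5′ to 3′, with T for U.
Miat: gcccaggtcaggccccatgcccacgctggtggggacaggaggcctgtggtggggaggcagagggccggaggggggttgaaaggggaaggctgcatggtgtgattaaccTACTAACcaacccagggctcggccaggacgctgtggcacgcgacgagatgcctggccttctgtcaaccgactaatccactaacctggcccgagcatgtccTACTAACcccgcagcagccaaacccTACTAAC
The transcript held 6 copies of TACTAAC in 9163 bases, or 0.655 per kb. Of 1438 lncRNA genes searched, 8 had more per kb, and the median was 0. Kcnq1ot1 held 4 copies in 93092 bases and Neat1 held 1, and the longest transcripts of the other 5 members held 0.

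The 8 RNAs differed widely in level. Per kb of exon, the mean in Control-ASO libraries was 2052 ± 164 CPM for Malat1, 95.7 ± 28.4 for Meg3, 39.4 ± 8.80 for Miat, 37.7 ± 5.53 for Rian, 33.6 ± 0.095 for Peg13, 9.73 ± 7.19 for Neat1, 7.96 ± 1.78 for Mirg and 4.81 ± 0.747 for Kcnq1ot1 (SD, n = 3 for each). Malat1 and Meg3 each stood clear of the next RNA in all Control-ASO libraries. Miat overlapped Rian and Peg13, and Neat1 overlapped Mirg and Kcnq1ot1, so that the order within these pairs was not larger than the spread between mice. Rian lay above Peg13, and Mirg above Kcnq1ot1, in every Control-ASO library. On the scale of CPM, which is not divided by length, Malat1 ranked 3 of the 19969 genes tested by its Control-ASO mean, Meg3 12 and Rian 76. Kcnq1ot1 ranked 175, Miat 236, Neat1 614, Peg13 902 and Mirg 3161, so that not all members were among the most abundant RNAs.

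**Figure D1:**
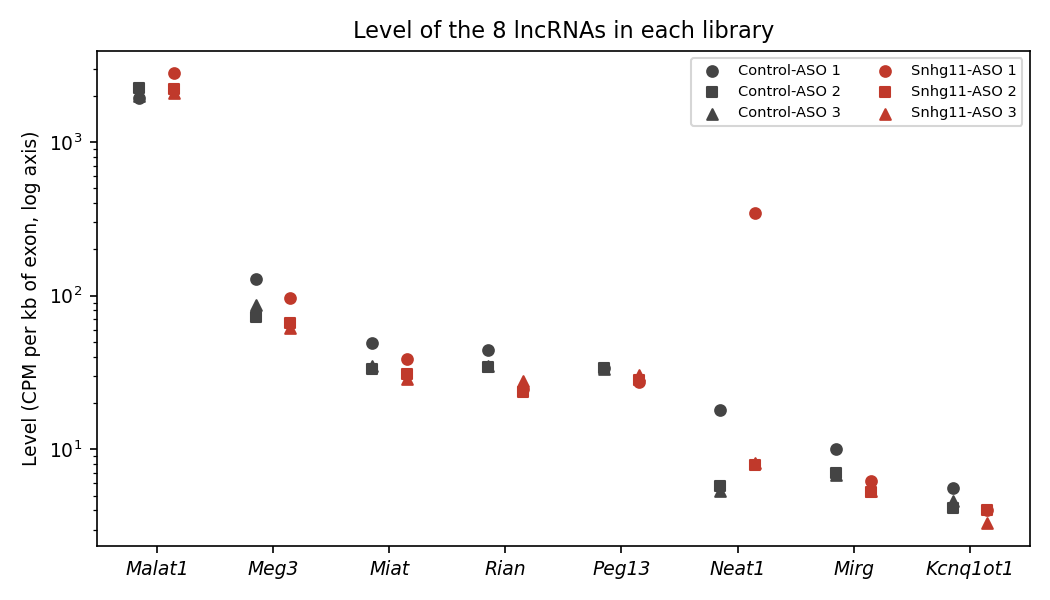
Level of each lncRNA in each library, in CPM per kb of exon on a log axis, with Control-ASO libraries in grey on the left and Snhg11-ASO libraries in red on the right of each name. Malat1 lies above all other RNAs in every library, and Neat1 in Snhg11-ASO replicate 1 lies at 342, far above its 5 other values.

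Together the 8 RNAs took 1.85%, 1.83% and 1.74% of all gene counts in replicates 1, 2 and 3 of Control-ASO, against 2.94%, 1.79% and 1.70% in those of Snhg11-ASO. Malat1 alone made up between 1.37% and 1.93%. The groups overlapped in the share of the 8 RNAs (two-sided exact permutation test, p = 0.9, where 0.1 is the smallest p that 3 mice against 3 allow), and the high value of Snhg11-ASO replicate 1 included 0.703% on Neat1, against 0.0114% to 0.0380% in the other libraries.

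Across all genes, edgeR (quasi-likelihood test, Benjamini-Hochberg adjustment) called 0 genes (0%) between the groups, with 1619 genes at an unadjusted p under 0.05 (8.11%), and DESeq2 called 258 (1.29%). None of the 8 lncRNAs passed the threshold with edgeR, and Rian passed it with DESeq2, lower in Snhg11-ASO like 0.796% of all genes. For 4 of them, Rian, Mirg, Peg13 and Kcnq1ot1, all Snhg11-ASO libraries lay below all Control-ASO libraries, as did 7.70% of all genes tested. No member was higher without overlap (7.73% of all genes). The same 4 had an unadjusted p under 0.05 with the lower level in Snhg11-ASO, as did 4.43% of all genes, and none was at such a p with the higher level (3.68%). In all, 6 of the 8 had a negative log2 fold change, as did 48.3% of all genes. Without Snhg11-ASO replicate 1, Meg3 and Miat joined them, so that 6 of 8 were lower with no overlap (13.7% of all genes) and 5 had an unadjusted p under 0.05 (5.54%). Without any of the other libraries the count that did not overlap stayed at 4, against 11.3% to 13.7% of all genes. At an unadjusted p under 0.05 and lower there were 2 members without Control-ASO replicate 1 (2.59% of all genes), 3 without Control-ASO replicate 2 (4.84%), 2 without Control-ASO replicate 3 (2.74%), 1 without Snhg11-ASO replicate 2 (3.75%) and 2 without Snhg11-ASO replicate 3 (3.48%). Neat1 was at such a p with the higher level without Snhg11-ASO replicate 2 and without Snhg11-ASO replicate 3.

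Meg3, the most abundant of the 3 RNAs of the Dlk1-Dio3 locus, is an lncRNA with growth-restraining roles. It was counted at 2308, 1321 and 1565 CPM in replicates 1, 2 and 3 of Control-ASO, against 1734, 1195 and 1118 CPM in those of Snhg11-ASO. The groups overlapped through Snhg11-ASO replicate 1, which lay above 2 of the 3 Control-ASO libraries. The log2 fold change was -0.36 (SE 0.26, 95% interval from -0.97 to 0.24, adjusted p = 0.748 with edgeR). Without Snhg11-ASO replicate 1 it was -0.58 (SE 0.24, adjusted p = 0.493). Without Control-ASO replicate 1, the highest library, it was -0.11 (SE 0.22), so that most of the difference rests on that library.

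Rian (also called Meg8), the host of snoRNAs in the middle of the locus, was counted at 803, 626 and 631 CPM in the Control-ASO libraries, against 452, 428 and 510 CPM in the Snhg11-ASO libraries. All Snhg11-ASO libraries were below all Control-ASO libraries, and the fitted level was 0.675 times that of Control-ASO. Its log2 fold change was -0.57 (SE 0.14, 95% interval from -0.89 to -0.25, unadjusted p = 0.00414, adjusted p = 0.462 with edgeR). Rian was the member that passed the threshold with DESeq2 (adjusted p = 0.0239). Without Snhg11-ASO replicate 1 the log2 fold change was -0.55 (SE 0.15), so that the difference did not rest on that library.

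Mirg, the microRNA host at the far end, was counted at 73.0, 51.4 and 49.7 CPM in the Control-ASO libraries, against 45.3, 38.4 and 39.1 CPM in the Snhg11-ASO libraries. The groups did not overlap. The log2 fold change was -0.50 (SE 0.17, 95% interval from -0.90 to -0.11, unadjusted p = 0.0202, adjusted p = 0.551 with edgeR and 0.231 with DESeq2), and without Snhg11-ASO replicate 1 it was -0.58 (SE 0.17). Leaving out Control-ASO replicate 1, the highest library, gave -0.31 (SE 0.12).

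Ratios within a library do not depend on how libraries are scaled. For every 100 counts of Meg3 there were 34.8, 47.4 and 40.3 counts of Rian in the Control-ASO libraries, against 26.1, 35.8 and 45.7 in the Snhg11-ASO libraries. The groups overlapped (two-sided exact permutation test on the log2 ratio, p = 0.5), and so did the counts of Mirg for every 100 of Meg3, with 3.16, 3.89 and 3.17 against 2.61, 3.22 and 3.49 (p = 0.6).

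Counts on the small RNA genes inside Rian and Mirg were read beside those of both hosts. Of 13 snoRNA genes within Rian, 12 were at 0 in every library, some of which, such as DQ267102 and Gm23600, share no exonic base with Rian. A read on exons of overlapping genes is given to neither, so genes in introns, which share no exonic base with the host, were summed, a choice made after their values were seen. Rian has 9 such genes of microRNAs and snoRNAs. The 4 with counts (Mir341, Mir1188, Mir370 and the snoRNA gene Gm24564) summed to 340, 299 and 259 counts in the Control-ASO libraries, against 172, 255 and 254 counts in the Snhg11-ASO libraries. Scaled, this was 11.6, 8.89 and 7.69 CPM against 4.51, 6.10 and 5.82 CPM. The 5 such genes of Mirg (Mir453, Mir154, Mir496a, Mir541 and Mir409) summed to 8.36, 5.29 and 5.82 CPM in the Control-ASO libraries, against 4.96, 4.19 and 4.40 CPM in the Snhg11-ASO libraries. In both hosts the Snhg11-ASO libraries were all below the Control-ASO libraries, as were the hosts' exons and 7.70% of all genes tested. The exact permutation test (two-sided) gave p = 0.1 for each, which is the lowest possible. As the genes were chosen after their values were seen, this p cannot serve as a test of them. They lie in the hosts' own introns and were read in the same libraries, so they are not independent of the hosts' counts. Unspliced host RNA and the small RNAs themselves cannot be told apart in these counts.

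Of the other genes of the locus, 4 of 6 were tested, and all 4 were lower in Snhg11-ASO libraries by a median log2 fold change of -0.49, while the median over all genes tested was 0.01. With edgeR 0 of the 4 passed the threshold, and with DESeq2 1 did. This was Dio3, which codes for the deiodinase that inactivates thyroid hormone, with an adjusted p of 0.00932 (0.492 with edgeR). It was counted at 3.81, 0.297 and 0.416 CPM in the Control-ASO libraries, against 0.0787, 0.0718 and 0.0687 CPM in the Snhg11-ASO libraries, so that its group mean rests on Control-ASO replicate 1. Dlk1, a Notch-related ligand, was counted at 4.35, 0.268 and 0.920 CPM against 1.97, 0.814 and 0.618 CPM, and the groups overlapped. The other genes tested, Begain and Wdr25, had smaller log2 fold changes of -0.12 (SE 0.10) and -0.29 (SE 0.29), and their groups overlapped. Without Snhg11-ASO replicate 1 these were -0.09 (SE 0.09) and -0.03 (SE 0.17). Markers of the choroid plexus also differed between the libraries. The 6 markers, none of them at 0 in any library, summed to 1921, 39.9 and 1249 CPM in replicates 1, 2 and 3 of Control-ASO, against 1305, 127 and 69.6 CPM in those of Snhg11-ASO. Their part in the levels of Dio3 and Dlk1 was not tested.

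**Figure D2:**
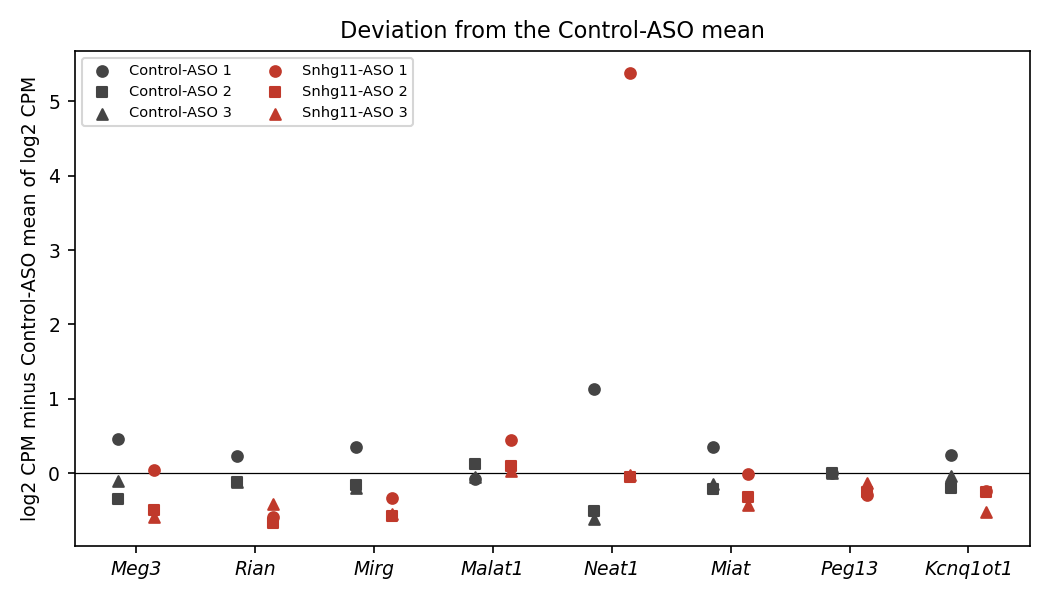
Deviation of each library from the Control-ASO mean, as log2 CPM minus the mean log2 CPM of the 3 Control-ASO libraries, with symbols for the replicate numbers. For Rian, Mirg, Peg13 and Kcnq1ot1 all red symbols lie below all grey symbols, and Neat1 in Snhg11-ASO replicate 1 lies above every other point.

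Malat1 varied less between libraries than all members but Peg13, with an SD of log2 CPM of 0.192. It was counted at 13489, 15637 and 13856 CPM in the Control-ASO libraries, against 19531, 15312 and 14578 CPM in the Snhg11-ASO libraries. The groups overlapped, and the highest value was that of Snhg11-ASO replicate 1. The fitted log2 fold change was 0.20 (SE 0.18, 95% interval from -0.21 to 0.62, adjusted p = 0.785 with edgeR) and 0.06 (SE 0.15, from -0.30 to 0.42) without that library.

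Neat1 showed the largest spread among the 8 RNAs. It was counted at 374, 120 and 112 CPM in replicates 1, 2 and 3 of Control-ASO, against 7112, 165 and 168 CPM in those of Snhg11-ASO. In Snhg11-ASO replicate 1 this was 271186 counts, against 3763 to 11015 in the other libraries, and about 19 times the highest of them. The other 2 Snhg11-ASO libraries lay between the Control-ASO libraries. The log2 fold change was 3.62 (SE 1.54, 95% interval from -0.03 to 7.27, adjusted p = 0.618 with edgeR), and DESeq2 gave no p for it. Without Snhg11-ASO replicate 1 the log2 fold change was -0.28 (SE 0.52, 95% interval from -1.53 to 0.98), so that the higher group mean was set by that library. Neither the labels nor the methods name a pairing of the replicate numbers. Where same-numbered libraries were compared all the same, Neat1 was higher in the Snhg11-ASO library of each number. With the replicate number as a block the log2 fold change was 1.62 (SE 0.84, adjusted p = 0.646 with edgeR). With the block and without Snhg11-ASO replicate 1, a choice made after seeing the data, it was 0.52 (SE 0.08, adjusted p = 0.306 with edgeR). In that fit Control-ASO replicate 1, at 374 CPM, is alone in its block and does not bear on the difference. The direction without Snhg11-ASO replicate 1 thus depends on whether Control-ASO replicate 1 is counted.

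That value was set beside the other genes of the library. Among 9813 genes with a mean of 10 CPM or more, 184 were over 2 times and 28 over 5 times as high in Snhg11-ASO replicate 1 as in any other library, and Neat1 ranked 2 by this ratio. The SD of its log2 CPM over the 6 libraries, 2.29, ranked 34 of 19969 genes, with a median of 0.275 over all genes and 0.135 for Peg13, the steadiest member. Malat1, its neighbour on the chromosome, did not share the size of the difference. For every 100 counts of Malat1 there were 2.78, 0.767 and 0.806 counts of Neat1 in the Control-ASO libraries, against 36.4, 1.08 and 1.15 in the Snhg11-ASO libraries (two-sided exact permutation test on the log2 ratio, p = 0.5).

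Markers of other cells also differed in that library. The 6 markers of infiltrating myeloid cells, none at 0 in any library, summed to 65.7 CPM in Snhg11-ASO replicate 1, to 20.7 to 29.6 CPM in Control-ASO and to 36.3 and 27.5 CPM in the other Snhg11-ASO libraries. Of these, S100a8 and S100a9, calcium-binding proteins of neutrophils, stood at 22.3 and 16.0 CPM there and at or below 1.09 CPM elsewhere, while Lyz2, the lysozyme of myeloid cells, stood at 19.7 CPM there, within the 16.1 to 24.5 CPM of Control-ASO. Ly6c2, a monocyte surface protein, was higher in all Snhg11-ASO libraries, at 2.88, 1.60 and 1.79 CPM against 0.306, 0.535 and 0.564 CPM in Control-ASO, and rose by DESeq2's test (log2 fold change 2.14 with edgeR, adjusted p = 0.308 with edgeR and 0.000892 with DESeq2). In all, 6 of the 6 markers had a positive log2 fold change, with a median of 1.71, while 48.3% of all genes tested had a negative one. Without Snhg11-ASO replicate 1, 4 markers were higher and 2 lower, S100a8 and S100a9, and the median was 0.33. The 6 microglial markers summed to 119 CPM there, to between 192 and 351 CPM in Control-ASO and to 319 and 348 CPM in the other Snhg11-ASO libraries. The 8 neuronal markers summed to 4212 CPM there and to between 4748 and 5277 CPM in the other 5 libraries. Their part in the level of Neat1 was not tested.

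The RNAs that code for proteins of the same nuclear bodies differed little, and protein was not measured. Of 17 genes of paraspeckle proteins tested, 8 were lower and 9 higher in Snhg11-ASO libraries, with a median log2 fold change of 0.008 and 0 at an unadjusted p under 0.05. Those with the smallest p were Hnrnpk at 0.12 (SE 0.08), Nono at 0.13 (SE 0.10) and Hnrnph3 at 0.14 (SE 0.12), all genes of RNA-binding proteins. Of 19 genes of speckle and splicing proteins 4 were lower and 15 higher, with a median of 0.08, and 0 were at an unadjusted p under 0.05. The splicing factor Srsf6 had the smallest p among them, with a log2 fold change of 0.31 (SE 0.19) and its highest level, 134 CPM, in Snhg11-ASO replicate 1, where the other libraries lay between 79.9 and 86.1 CPM. Without that library the median of both lists turned negative, to -0.034 and -0.008. Among the 6 protein genes next to Malat1 and Neat1, 1 had an unadjusted p under 0.05, Frmd8, a partner of the protease regulators iRhom, at a log2 fold change of 0.59 (SE 0.21, adjusted p = 0.563 with edgeR).

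Miat was counted at 460, 312 and 326 CPM in the Control-ASO libraries, against 359, 289 and 268 CPM in the Snhg11-ASO libraries. As for Meg3, the groups overlapped through Snhg11-ASO replicate 1 alone. Its log2 fold change was -0.26 (SE 0.18, 95% interval from -0.70 to 0.18, adjusted p = 0.747 with edgeR) and -0.39 (SE 0.18, adjusted p = 0.523) without that library. Without Control-ASO replicate 1, the highest library, it was -0.07 (SE 0.15), so that most of the difference rests on Control-ASO replicate 1. Of its 4 neighbouring genes 1 was lower and 3 higher, and 0 had an unadjusted p under 0.05.

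**Figure D3:**
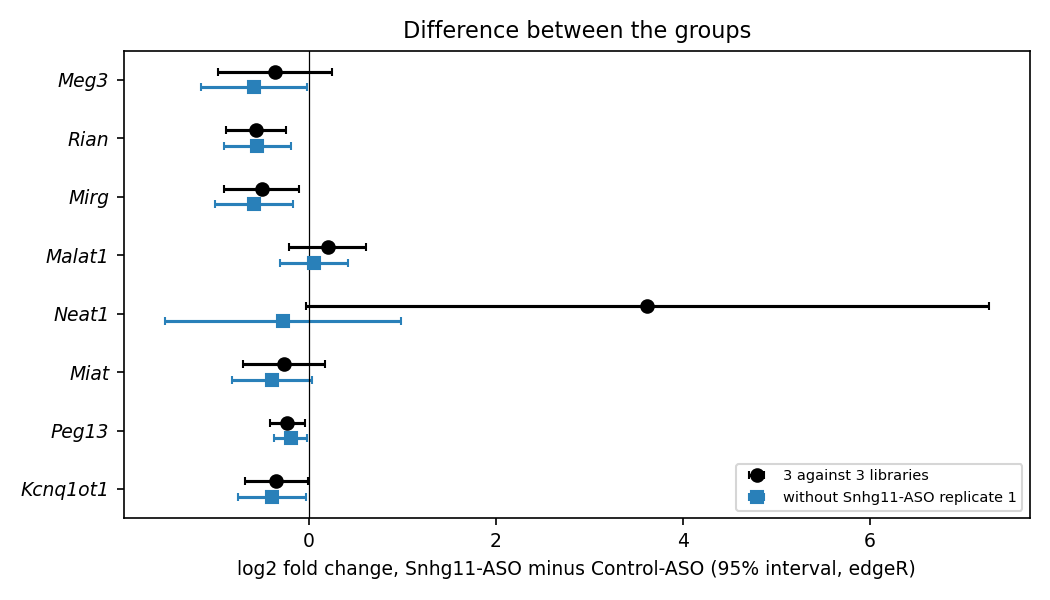
Log2 fold change of each lncRNA, Snhg11-ASO minus Control-ASO, with 95% intervals from edgeR, for all 6 libraries (black circles) and without Snhg11-ASO replicate 1 (blue squares). Neat1 moves from 3.62 to -0.28 in these fits without a replicate block (0.52 with the block and without that library), and the other 7 RNAs keep their direction.

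Peg13, an imprinted RNA that is read from the paternal chromosome within Trappc9, was counted at 159, 159 and 158 CPM in the Control-ASO libraries, against 130, 133 and 144 CPM in the Snhg11-ASO libraries. The groups did not overlap. The Control-ASO libraries differed by less than counting alone would give, with a coefficient of variation of 0.3% where the counts allow 1.40%. The log2 fold change was -0.23 (SE 0.08, 95% interval from -0.42 to -0.04, unadjusted p = 0.026, adjusted p = 0.562 with edgeR and 0.29 with DESeq2) and -0.19 (SE 0.07) without Snhg11-ASO replicate 1. This was the smallest difference among the 4 RNAs whose groups did not overlap. As Peg13 lies in an intron of Trappc9 on the same strand, unspliced Trappc9 RNA cannot be told apart from Peg13 in these counts.

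Trappc9, the trafficking-complex gene around it, was counted at 66.8, 55.8 and 48.0 CPM in the Control-ASO libraries, against 49.4, 40.4 and 31.0 CPM in the Snhg11-ASO libraries, with a log2 fold change of -0.50 (SE 0.20, unadjusted p = 0.0386, adjusted p = 0.589 with edgeR). Its groups overlapped. Kcnk9, the potassium channel gene of the same imprinted domain, had a log2 fold change of -0.22 (SE 0.17, adjusted p = 0.766 with edgeR). Chrac1 and Ago2 were higher by 0.18 (SE 0.17) and 0.25 (SE 0.29) on the log2 scale, and neither passed the threshold.

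Kcnq1ot1 was counted at 523, 387 and 432 CPM in the Control-ASO libraries, against 376, 373 and 308 CPM in the Snhg11-ASO libraries. The groups did not overlap, and the gap between them ran from 376 to 387 CPM. Its log2 fold change was -0.34 (SE 0.14, 95% interval from -0.68 to -0.0038, unadjusted p = 0.0481, adjusted p = 0.609 with edgeR and 0.443 with DESeq2) and -0.39 (SE 0.15) without Snhg11-ASO replicate 1. Leaving out Control-ASO replicate 1, the highest library, gave -0.23 (SE 0.13).

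Of the protein genes of the domain around Kcnq1ot1, 8 of 11 were tested. Of these 4 were lower and 4 higher, with a median log2 fold change of 0.05 and 0 at an unadjusted p under 0.05. Cdkn1c, the growth inhibitor that is a known target of silencing in this domain, was counted at 4.52, 1.72 and 4.51 CPM in the Control-ASO libraries, against 4.25, 2.13 and 2.20 CPM in the Snhg11-ASO libraries, and the groups overlapped. The gene Kcnq1, a potassium channel, was at or below 0.970 CPM in every library. Phlda2, Ascl2 and Trpm5 did not pass the filter on low counts.

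Counts from the opposite strand were read for all 8 RNAs, since several have antisense partners. Over all genes such counts made up 3.24% to 3.78% of a library. For 7 of the members they were between 0% and 0.633% of the gene's own counts in every library. For Kcnq1ot1 they were 0.671%, 0.367% and 0.315% in the Control-ASO libraries, against 1.79%, 0.447% and 0.437% in the Snhg11-ASO libraries. The value of Snhg11-ASO replicate 1 stood on 262 antisense counts, with an exact 95% interval (Clopper-Pearson) from 1.58% to 2.02%, while the other Snhg11-ASO libraries lay within the range of Control-ASO (two-sided exact permutation test, p = 0.5). Intervals cover counting error only. Mirg had 0 antisense counts in Snhg11-ASO replicates 2 and 3, which allows shares of up to 0.229% and 0.216% by the upper end of the same interval.

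**Figure D4:**
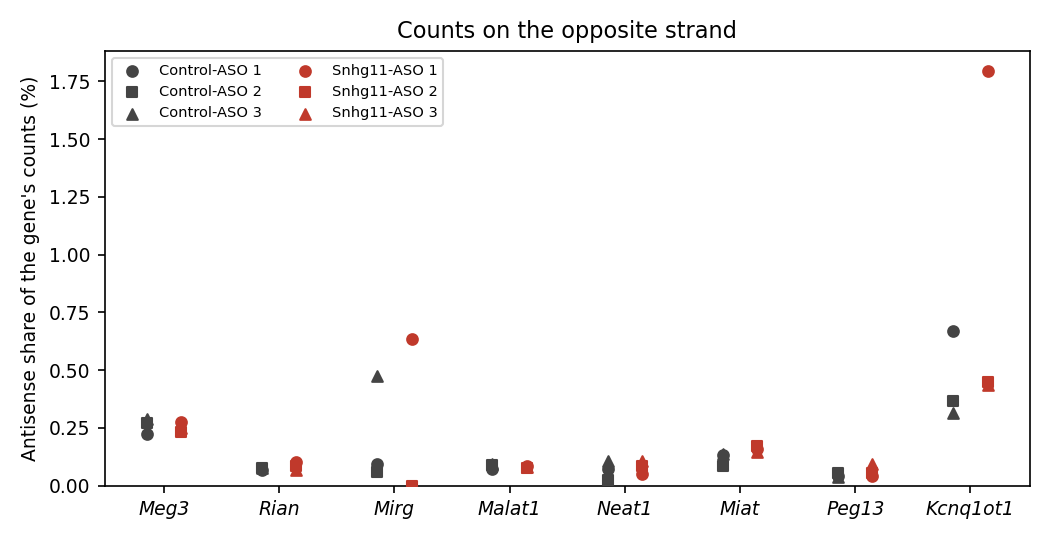
Antisense share of each gene, as forward-strand counts in percent of forward- plus reverse-strand counts, with Control-ASO libraries in grey and Snhg11-ASO libraries in red. Kcnq1ot1 in Snhg11-ASO replicate 1 is the highest point at 1.79%, and most others lie below 0.30%.

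The antisense share of Miat was 0.133%, 0.0858% and 0.137% in the Control-ASO libraries, against 0.161%, 0.174% and 0.145% in the Snhg11-ASO libraries. These groups did not overlap (exact permutation test, two-sided, p = 0.1, which is the lowest possible, with 8 shares tested), but the values rest on 9 to 22 counts a library, and the interval of each library overlapped those of all the others. For the other 7 RNAs the exact permutation p was between 0.5 and 1.

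Strand also set how much of Malat1 and Miat was counted at all. When both strands are counted together, a read that falls on exons of overlapping genes is given to none of them. Malat1 then kept 89.9% to 90.7% of its reverse-strand counts and Miat 71.0% to 73.5%, and both have an annotated gene on the other strand, with 453 shared exonic bases for Malat1 and 2260 for Miat. The other members kept between 97.8% and 100.6%. The shares were alike in the groups, and the direction was the same for all 8 RNAs with counts of both strands.

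The members were set beside other RNAs of the same kinds. Of 22 other lncRNAs tested, 11 were lower and 11 higher in Snhg11-ASO libraries, with a median log2 fold change of 0.03. Of these, 2 had an unadjusted p under 0.05, as did 8.11% of all genes. Snhg14, the paternally expressed host of snoRNAs at the Snrpn locus, was counted at 475, 414 and 403 CPM against 394, 295 and 278 CPM, with a log2 fold change of -0.42 (SE 0.15, adjusted p = 0.573 with edgeR). The other was A330023F24Rik, a host of microRNAs, at -0.29 (SE 0.09, adjusted p = 0.543 with edgeR). The median of the 8 RNAs was -0.30, with 6 lower and 2 higher.

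Of 19 imprinted protein genes outside these loci, 15 were lower and 4 higher, with a median log2 fold change of -0.31. Over all genes tested 48.3% were lower. At an unadjusted p under 0.05 and lower there were 3, as were 4.43% of all genes. These were Zdbf2 at -0.76 (SE 0.23), Usp29 at -0.53 (SE 0.16) and Grb10, an adaptor of growth factor receptors, at -0.53 (SE 0.16), with adjusted p-values of 0.514, 0.514 and 0.527 from edgeR. For all 3 the groups did not overlap, with Snhg11-ASO lower, as for 7.70% of all genes tested. Zdbf2 was counted at 41.1, 21.8 and 33.7 CPM in the Control-ASO libraries, against 18.3, 20.7 and 18.0 CPM in the Snhg11-ASO libraries.

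**Figure D5:**
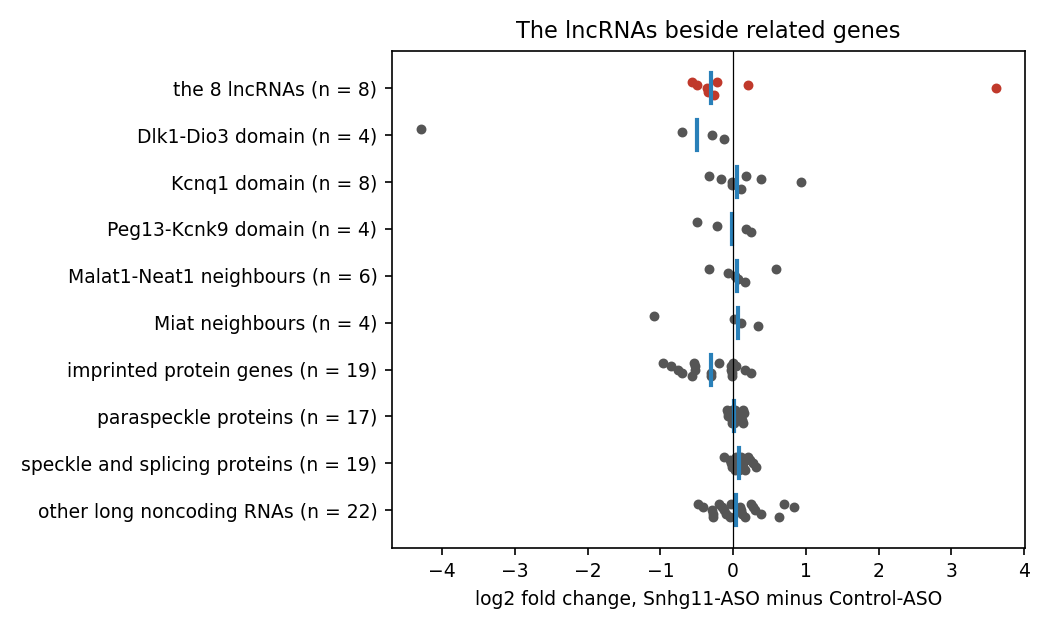
Log2 fold change, Snhg11-ASO minus Control-ASO, of each gene (points) in the 8 lncRNAs (red) and in 9 lists of related genes (grey), with the median of each list as a blue bar. The imprinted protein genes have a median of -0.31, the genes of paraspeckle proteins lie close to 0, and Neat1 is the red point at 3.62.

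The genes most like each member across the 6 libraries were found by Pearson's r of log2 CPM among genes with a mean of 10 CPM or more. These values describe 6 libraries that share depth and tissue composition. For Neat1 they were Pan3 and Irs2 (r = 0.997 for both), and 1170 of 9812 genes had an r over 0.9. Irs2 stood at 168 CPM in Snhg11-ASO replicate 1 and between 51.4 and 72.7 CPM in the others. For Malat1 they were Tbc1d20 (0.997) and Rnf34 (0.996), with 786 genes over 0.9. Neat1 and Malat1 were both highest in Snhg11-ASO replicate 1, and their r with other genes is not given without it. These r and counts of genes can therefore rest largely on that library. For the other members between 70 and 110 genes were over 0.9. Meg3 was most like Dlc1 (0.995) and Pitpnm1 (0.99), and Pitpnm1 was also among the pair most like Miat, with Epb41l4b (0.99 for both). Rian was most like Reln (0.978), the gene for the glycoprotein reelin, and Tdp1 (0.977), Mirg like Gm37862 (0.989) and Srpk1 (0.987), Peg13 like Ap4s1 (0.987) and Pcx (0.982), and Kcnq1ot1 like Ssbp3 (0.995) and Arfgef3 (0.983).

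Among themselves, Meg3 and Miat had the most similar pattern, with an r of 0.987 over the 6 libraries and 0.988 without Snhg11-ASO replicate 1. Over the 6 libraries Rian and Mirg followed with 0.907, and Rian and Peg13 with 0.904. Without Snhg11-ASO replicate 1 those pairs had 0.956 and 0.901, and other pairs lay between, or above both, such as Mirg and Miat with 0.962. Malat1 and Neat1 had an r of 0.809 over the 6 libraries and of -0.545 without Snhg11-ASO replicate 1, so that their likeness rests on that library.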

How the data were processed

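Ribo-depleted total RNA was sequenced from a stranded TruSeq kit. Per the labels, the authors aligned reads with STAR 2.5.2a to GRCm38 (mm10). The deposited values are raw counts of read pairs per gene and strand, with no normalization or pooling. The methods of the study name Rsubread for counting and DESeq2 after 1 Snhg11-ASO sample was left out, which they do not name, and the annotation used is not given in the sources used here. Summary lines that name no gene held 43.5% to 51.4% of pairs and were left out.

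Reverse-strand counts were used for levels and forward-strand counts for antisense. Of 55401 identifiers, 55141 matched GENCODE M21. Genes were kept by filterByExpr (minimum count 10), scaled by TMM and tested with edgeR 4.0.16 (R 4.3.3) by quasi-likelihood, adjusted by Benjamini-Hochberg over 19969 genes at 0.05, and with DESeq2 1.42.0 as an alternative. The SE is the fold change over the square root of F. CPM are per library total of tested genes times its TMM factor, and log2 CPM used a prior count of 2. The methods give 3 mice per group for the dissected hippocampi, so p-values measure the spread between mice.

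Same-numbered libraries deviated together from their group means, weakly (r = 0.297, 0.179 and 0.103). The numbers were treated as pairing from these values alone, and a fit with the replicate number as a block was made. Neither the labels nor the methods name a pairing, and r was not computed for libraries with different numbers, so these values do not show that the libraries were paired. Other alternatives were DESeq2 size factors, both strands, no filter, offsets by genomic span and leaving out each library. Members and lists were chosen with earlier results of these data known. Named were the members, Snhg11, in each list of related genes the 3 genes of smallest p (and any gene past the threshold), genes of the loci, and the 2 genes most like each member. Names outside this rule (overlapping small RNA genes, marker genes, Xist and Ddx3y) were chosen after their values were seen.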

Additional observations from a re-analysis of the deposited data

How the results depend on the processing

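Of the 8 lncRNAs, 7 kept their direction in all 15 alternatives planned for them, and Neat1 in 13 of 15. The genes past the threshold numbered 0 with edgeR on all libraries and 258 with DESeq2, and 347, 275 and 223 with DESeq2 without Snhg11-ASO replicate 1, 2 or 3. Leaving out each library in edgeR gave between 0 and 2 genes, with 2 without Snhg11-ASO replicate 1. Rian passed the threshold with DESeq2 (-0.57, adjusted p = 0.0239) and with DESeq2 without Snhg11-ASO replicate 1 (-0.55, adjusted p = 0.0197) or replicate 3 (-0.64, adjusted p = 0.0284), and did not pass it without replicate 2 (adjusted p = 0.164). Over its alternatives the adjusted p ranged from 0.0197 to 0.961. Neat1 reversed to -0.28 without Snhg11-ASO replicate 1, in edgeR and in DESeq2, and to -0.32 with genomic span offsets and without that library, and its values over the left-out libraries ran from -0.28 to 4.40. The cause was not tested.

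With the replicate block 0 genes were called, and the log2 fold change of Neat1 was 1.62 (SE 0.84, adjusted p = 0.646) in place of 3.62. With the block and without Snhg11-ASO replicate 1, a fit added after seeing the data, it was 0.52 (SE 0.08, adjusted p = 0.306). Control-ASO replicate 1 is then alone in its block and does not bear on the difference. The block changed no call.

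Among differences with a permutation test, leaving out 1 library moved the log2 ratio of Neat1 to Malat1 from -0.1036 (without Snhg11-ASO replicate 1) to 2.437, and the share of the 8 RNAs from -0.06105 (without the same library) to 0.5592 percentage points. In percentage points, the antisense difference ranged from -0.02689 to 0.006812 for Meg3, from -0.2088 to 0.1355 for Mirg, from -0.009836 to 5.94e-06 for Malat1, from -0.007379 to 0.03332 for Neat1 and from -0.009176 to 0.6689 for Kcnq1ot1. Without Snhg11-ASO replicate 1, chosen after seeing the data, list medians reversed to -0.039 (Miat neighbours), -0.034 (paraspeckle proteins), -0.008 (speckle and splicing proteins), 0.125 (granule cell markers) and 0.254 (microglial markers). Depth limits the antisense shares, which rest on between 0 and 622 counts a library, and 3 libraries a group cannot give an exact p under 0.1.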
